A study of Saccharomyces cerevisiae with 25 samples.

Results

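The data described here are 6 of the 25 libraries of 1 yeast time course: the 75, 90 and 105 min libraries, set against the 30, 45 and 60 min libraries, with the single 0 min library as the level before starvation. The 6 libraries are set by their sampling times. By 90 and 105 min ribosome genes and general stress genes stood near their 0 min levels, while phosphate starvation genes stayed well above theirs.

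All 7 libraries came from Saccharomyces cerevisiae in the BY4741 background with the genotype pho84pr-YFP, delta-phm3, that is, a yellow fluorescent protein behind the PHO84 promoter and a labelled deletion of PHM3, an older name of VTC4. The 75 to 105 min group held 3 libraries taken 75, 90 and 105 min after washed cells were moved to medium without phosphate. The 30 to 60 min group held 3 libraries from the same medium at 30, 45 and 60 min. The 0 min library came from cells in high phosphate medium. No time point was repeated and the labels name no separate cultures, so the 3 neighbouring times of a window stand in for replicates. The p-values below measure the spread between these libraries, part of which is change with time. Values are log2 RPM (log2 of a gene's reads scaled to a total of 1e+06 listed reads per library). They are not divided by transcript length, so levels are compared within a gene only.

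Depth was 543875, 1046803 and 1911747 reads at 75, 90 and 105 min, against 501479, 875967 and 737031 reads at 30, 45 and 60 min, and 1462566 reads at 0 min. Genes under 10 reads in a library have no value there. VTC4, whose product polymerises polyphosphate at the vacuole, had reads in every library: 8.29, 8.39 and 8.08 log2 RPM at 75, 90 and 105 min, against 8.27, 8.03 and 7.95 at 30, 45 and 60 min, and 7.92 at 0 min. The gene that the strain is labelled as lacking was therefore detected, and the libraries are called labelled phm3_del. Its difference between the windows was 0.17 ± 0.22 (log2, SE; limma adjusted p = 0.609). The summed level of 6 MATa cell markers was 3219, 2556 and 3043 RPM at 75, 90 and 105 min, 3623, 4033 and 3757 RPM at 30, 45 and 60 min, and 2831 RPM at 0 min. At most 2 of 4 MAT alpha markers were listed in a library, and the part of cell type in the results was not tested.

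Budding yeast senses phosphate through the PHO pathway. When phosphate is scarce, the inhibitor Pho81 blocks the Pho80-Pho85 kinase, and the transcription factor Pho4 enters the nucleus and turns on genes for phosphate uptake, secreted phosphatases and polyphosphate handling. Sudden nutrient shifts also trigger the environmental stress response, in which Msn2 and Msn4 raise genes for stress protection and reserve carbohydrates while ribosomal protein and ribosome biogenesis genes are turned down.

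Among 4083 genes listed in every library from 0 to 165 min, the median distance from 0 min was 0.41, 0.24 and 0.21 (log2, either direction) at 75, 90 and 105 min, against 0.59, 0.65 and 0.59 at 30, 45 and 60 min. Genes at least 1 (log2) higher than at 0 min numbered 378, 82 and 36 at 75, 90 and 105 min, against 722, 818 and 712 at 30, 45 and 60 min. Genes at least 1 lower numbered 74, 37 and 26 at 75, 90 and 105 min, against 415, 467 and 237 at 30, 45 and 60 min. The distance thus narrowed from 75 to 105 min, and the 75 min library stood between the other libraries of its window and the earlier ones. With sign kept, the median difference from 0 min was 0.31, 0.06 and -0.02 at 75, 90 and 105 min. At 30, 45 and 60 min it was 0.29, 0.36 and 0.40. The distances and counts were not corrected for this shift of whole libraries. At 120 min the counts were 506 higher and 310 lower, so the approach to the 0 min level had ended. These genes are not independent of each other, and every distance is taken from the same 0 min library.

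In the test between the windows, 4820 genes were fitted, those with a value in 2 or more of the 3 libraries in both windows. With limma at an adjusted p under 0.05, 447 genes (9.27%) were higher at 75 to 105 min and 768 genes (15.9%) were lower, 1215 (25.2%) in all. The windows did not overlap for 2110 genes (43.8%). The median difference of all genes tested was -0.22; values are shares of a library, so a larger share of one transcript lowers all others. With each library centred on the 4256 genes listed in all 7, that median was -0.03 and the calls were 612 higher and 570 lower, so higher calls made up 51.8% of all calls, against 36.8% without centring. Leaving out the 90 min library left 139 higher and 160 lower calls, leaving out 45 min left 191 and 294, and leaving out 105 min left 242 and 275. Without the 30 min library 436 genes were lower, and without the 75 min library 1175 were.

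**Figure D1:**
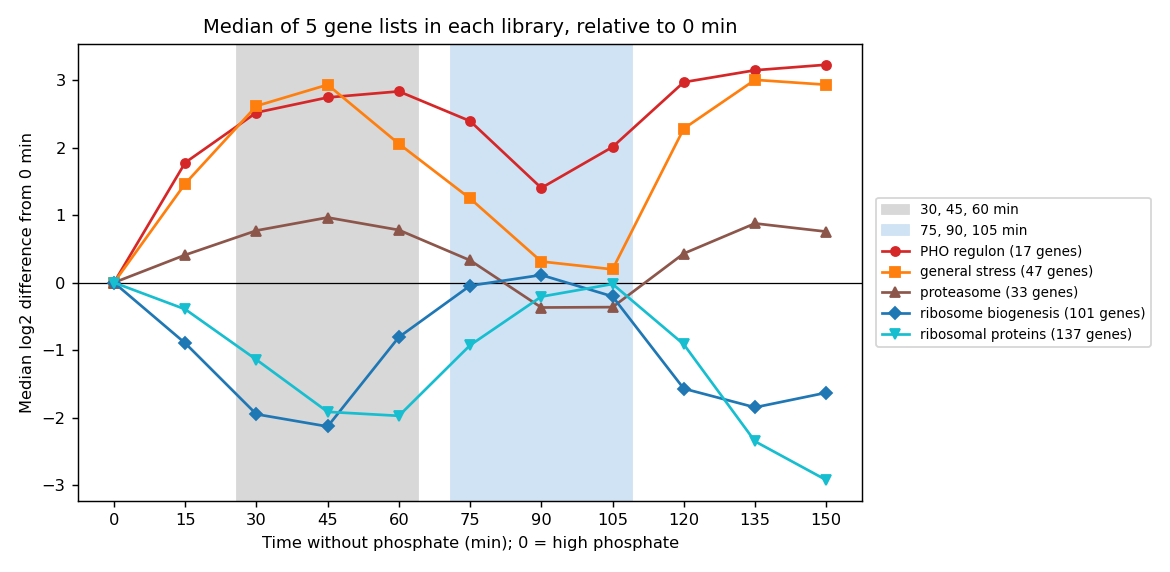
Median log2 difference from 0 min (vertical axis) of the members of 5 gene lists in each library from 0 to 150 min (horizontal axis, minutes without phosphate). Only members with a value in all of these libraries are used. Points are single libraries and the shaded bands mark the 2 windows. Stress, proteasome and ribosome lists come back to near 0 by 90 and 105 min and leave it again at 120 min, while the PHO regulon falls no lower than 1.40 at 90 min.

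Each gene that lay at least 1 (log2) from 0 min in the mean of 30 to 60 min, and in the same direction in all 3 libraries, was sorted by the share of that distance left at 75 to 105 min. A gene with under 25% left was called returned, with 75% or more stayed changed, and otherwise partly returned. The shares use the tested values themselves and are descriptions. Only fitted genes with a value at 0, 30, 45 and 60 min were sorted. Genes that fell under 10 reads in the first window are therefore missing from the classes of genes first lower. Of 777 genes higher at 30 to 60 min, 314 (40.4%) returned, 422 (54.3%) partly returned and 41 (5.28%) stayed changed. Of 395 genes lower at 30 to 60 min, 299 (75.7%) returned, 95 (24.1%) partly returned and only the ferric reductase gene FRE1 (0.253%) stayed changed. Of the returned genes, 82 of those first higher and 90 of those first lower lay beyond the 0 min level at 75 to 105 min, none by 1 or more. With libraries centred on the genes listed in all 7, the genes first higher included 193 returned and 187 partly returned, and 195 of the genes first lower were partly returned. Centring also changes which genes lie at least 1 from 0 min. These counts are therefore not shares of the 777 and 395 genes above. Without the 75 min library 494 of the genes first higher returned and 17 stayed changed, and without the 105 min library 88 stayed changed.

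**Figure D2:**
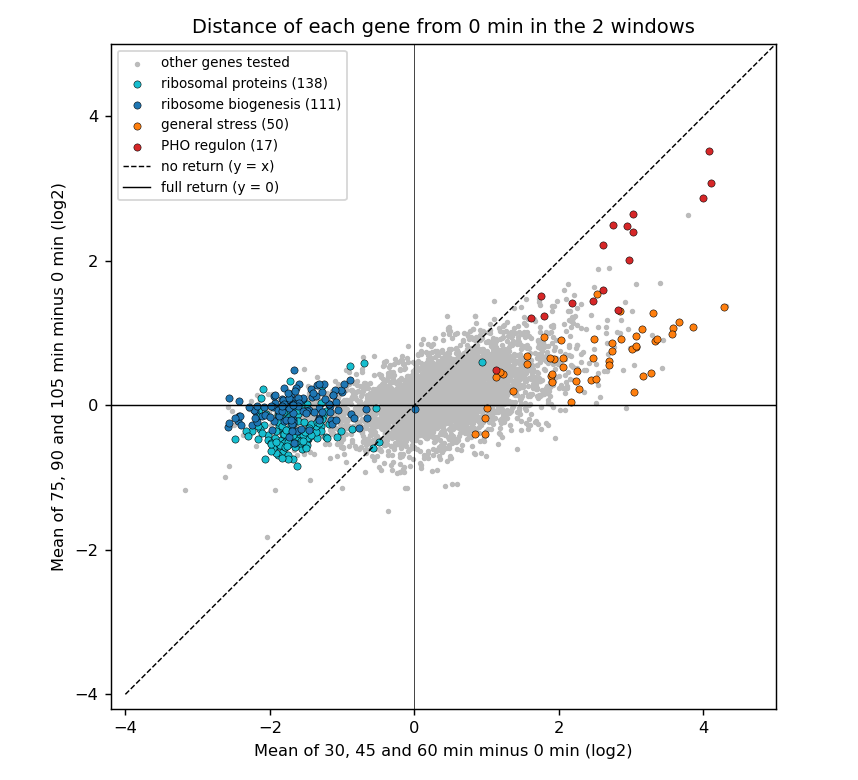
Each point is a gene: its mean log2 difference from 0 min at 30 to 60 min (horizontal axis) and at 75 to 105 min (vertical axis). Genes on the solid line at 0 had returned and genes on the dashed diagonal had not moved back; PHO regulon genes lie below the diagonal and above 0, with a median of 2.01 at 75 to 105 min, against medians of 0.64 for stress and -0.04 for ribosome biogenesis genes.

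The 0 min library alone sets the scale of these distances. Over 4792 genes, the mean of 75 to 105 min was at least 1 higher than 0 min for 120 genes (2.50%) and at least 1 lower for 11 genes (0.230%). The mean of 30 to 60 min was at least 1 higher for 830 genes (17.3%) and at least 1 lower for 428 (8.93%). No test was made against the 1 library at 0 min.

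The PHO regulon, 18 Pho4-driven genes without VTC4, had the median furthest from 0 min at 75 to 105 min of the lists examined. Medians by library, for this and the later lists, cover only members with a value in every library from 0 to 150 min. Over 17 such members the PHO regulon median stood 2.39, 1.40 and 2.01 (log2) above 0 min at 75, 90 and 105 min, against 2.52, 2.74 and 2.83 at 30, 45 and 60 min. All 17 members listed at 0 min were above it in each of the 75, 90 and 105 min libraries, and none of them returned: 10 partly returned and 7 stayed changed. All 18 had lower means at 75 to 105 min, but only 4 were called lower (22.2% of the list, against 15.9% of all genes tested). The median difference between the windows was -0.63, against -0.22 over all genes tested.

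Of the 41 genes that stayed higher, SPL2, PHO84 and PHO5 had the largest first rises, and their promoters are shown for that reason. The 300 bases before each start codon are shown, 5′ to 3′ on the gene's strand, from RefSeq build R64, with Pho4 core motifs in capitals (CACGTG, or CACGTT on either strand); positions are those of a motif's first base. SPL2 lies at chrVIII:375101-375400, PHO84 at chrXIII:25801-26100 and PHO5 at chrII:430952-431251, all on the minus strand.
SPL2: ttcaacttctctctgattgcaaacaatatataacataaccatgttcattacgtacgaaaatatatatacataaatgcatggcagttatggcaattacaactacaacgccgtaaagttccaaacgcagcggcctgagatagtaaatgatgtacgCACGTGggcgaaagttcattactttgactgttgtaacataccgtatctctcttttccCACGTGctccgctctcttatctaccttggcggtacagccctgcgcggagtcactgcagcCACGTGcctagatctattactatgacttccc
PHO84: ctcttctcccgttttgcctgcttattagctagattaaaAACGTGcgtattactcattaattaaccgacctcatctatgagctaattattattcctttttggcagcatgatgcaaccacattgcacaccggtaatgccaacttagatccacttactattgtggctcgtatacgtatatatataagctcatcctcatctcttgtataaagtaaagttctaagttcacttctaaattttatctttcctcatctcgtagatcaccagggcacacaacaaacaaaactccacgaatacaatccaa
PHO5: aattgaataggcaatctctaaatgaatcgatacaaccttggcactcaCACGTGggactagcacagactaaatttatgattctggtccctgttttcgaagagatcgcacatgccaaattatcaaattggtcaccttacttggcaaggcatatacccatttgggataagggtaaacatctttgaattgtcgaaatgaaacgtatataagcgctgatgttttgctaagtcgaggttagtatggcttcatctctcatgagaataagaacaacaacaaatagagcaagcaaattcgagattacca
The SPL2 window holds CACGTG at 147, 90 and 31 bases before the start codon, that of PHO5 holds it at 253 bases, and that of PHO84 holds CACGTT on the other strand at 262 bases. Of the 18 PHO regulon windows, 13 (72.2%) hold either motif, against 12.4% of 6007 windows of the same length before protein-coding genes. A match is a string of letters and does not show binding.

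SPL2, which encodes an inhibitor of low-affinity phosphate uptake, had 9.28, 8.57 and 9.11 log2 RPM at 75, 90 and 105 min, against 9.50, 9.54 and 9.62 at 30, 45 and 60 min, and 5.47 at 0 min. The windows did not overlap, the 90 min library was lowest, and 86.1% of the first rise was left. The difference of -0.57 ± 0.24 (log2, SE) did not pass the test (limma adjusted p = 0.115), and passed it without the 75 min library (adjusted p = 0.0487). PHO84, the high-affinity phosphate transporter, had 9.79, 9.0 and 9.54 log2 RPM at 75, 90 and 105 min, against 9.72, 9.88 and 9.85 at 30, 45 and 60 min, and 6.79 at 0 min. Its windows overlapped, because the 75 min value lay above the 30 min value, and 87.6% of its rise was left. PHO84 lies over an annotated antisense RNA, and the use of strand in counting is not stated in the labels.

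PHO89, the sodium-coupled phosphate transporter, had 8.93, 7.89 and 8.31 log2 RPM at 75, 90 and 105 min, against 8.20, 8.62 and 9.04 at 30, 45 and 60 min, and 5.88 at 0 min. Its level climbed through the first window and the windows overlapped; the difference was -0.24 ± 0.32 (log2, SE; limma adjusted p = 0.617). The difference was 0.00 and of the opposite sign without the 90 min library. VTC3 and VTC1, subunits of the polyphosphate polymerase complex, kept 84.5% and 84.9% of their rises, and PHO81, the kinase inhibitor of the pathway, kept 85.9%. VTC3 had 10.52, 9.97 and 10.12 log2 RPM at 75, 90 and 105 min, against 10.63, 10.53 and 10.82 at 30, 45 and 60 min, and 7.72 at 0 min. The windows of all 3 genes lay well above 0 min, and none of the 3 passed the test.

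The secreted acid phosphatases had lower means in the later window. PHO5 had 11.39, 10.48 and 10.40 log2 RPM at 75, 90 and 105 min, against 11.01, 11.39 and 11.75 at 30, 45 and 60 min, and 8.36 at 0 min. The 75 min library matched the 45 min library, and the later pair lay below the first window (difference -0.63 ± 0.31, SE; limma adjusted p = 0.171, or 0.0283 without the 75 min library). PHO12 fell 2.19-fold, with 11.63, 10.54 and 10.55 log2 RPM at 75, 90 and 105 min, against 11.87, 12.04 and 12.19 at 30, 45 and 60 min, and 8.04 at 0 min (limma adjusted p = 0.0263). PHO11 fell 2.04-fold (adjusted p = 0.0286). Both calls were lost without the 45, 60, 90 or 105 min library (adjusted p up to 0.118 for PHO12 and 0.124 for PHO11). Values of PHO5, PHO11 and PHO12 were fractions of reads in nearly all libraries, so these genes are not known to have been measured independently.

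PHM8, a phosphatase that releases phosphate from nucleotides and lysophosphatidic acid, fell most in the regulon. It had 7.94, 6.66 and 6.72 log2 RPM at 75, 90 and 105 min, against 8.48, 8.71 and 8.63 at 30, 45 and 60 min, and 5.79 at 0 min. The windows did not overlap, the fall was 2.83-fold (-1.50 ± 0.34, log2, SE; limma adjusted p = 0.0132), and 46.8% of the first rise was left. The call was lost without the 90 or the 105 min library (adjusted p up to 0.0642). PHM6 fell 1.93-fold (adjusted p = 0.0363), a call lost under centring and without the 30, 45 or 90 min library (adjusted p up to 0.155). PHO8, the vacuolar alkaline phosphatase, had a difference of -1.02 ± 0.34 (adjusted p = 0.0520), with 60.9% of its rise left, and was called without the 75 min library (adjusted p = 0.00603) and in other settings, such as the fit of all 25 libraries. Over the list, 0 members were called lower without the 90 min library, 1 without the 45 or 105 min library, 2 without the 60 min library and 10 without the 75 min library.

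Of the PHO regulon members not yet named, none passed the test. VTC2, of the polyphosphate polymerase complex, kept 74.9% of its rise. PHO86, which the transporter needs to leave the endoplasmic reticulum, kept 69.0%. GDE1, a glycerophosphodiesterase, kept 64.6%, HOR2, a glycerol phosphatase, 58.1%, and PPN1, a polyphosphatase, 43.7%. GIT1, a glycerophosphoinositol permease, was listed in 2 of 3 libraries of each window and not at 0 min. Of the members, VTC2 and PHO11 lay just under the 75% boundary (74.9% each), PHO12 lay at 71.8%, and PHO5 was the first above it (79.3%).

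**Figure D3:**
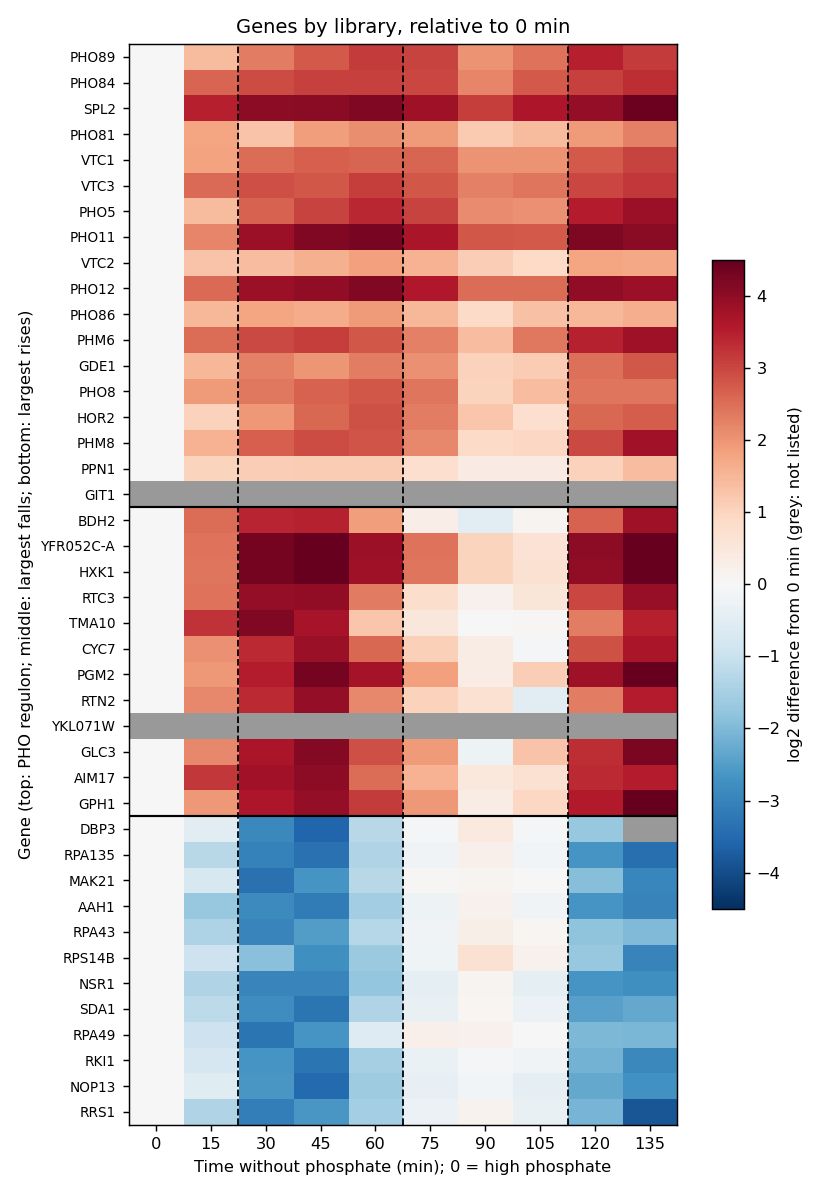
Log2 difference from 0 min (colour scale, grey where a gene is not listed) of the PHO regulon and of the 12 largest falls and 12 largest rises at 75 to 105 min against 30 to 60 min (rows), in each library from 0 to 135 min (columns); dashed lines bound the 2 windows. The 17 PHO regulon genes with a 0 min value are above it in each library from 75 to 105 min. Among the largest falls, several are still well above 0 min at 75 min, such as HXK1 (8.63 against 6.21 log2 RPM at 0 min), and the rises and falls are far from 0 min again at 120 min.

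Around the pathway, 12 signalling genes were tested, of which 1 rose and 2 fell, shares close to the 9.27% and 15.9% of all genes, so these counts do not set the list apart. PHO90, a low-affinity phosphate transporter, had 6.79, 7.06 and 6.51 log2 RPM at 75, 90 and 105 min, against 5.32, 5.0 and 6.03 at 30, 45 and 60 min, and 6.90 at 0 min. The windows did not overlap and the rise was 2.53-fold (limma adjusted p = 0.0127, or 0.0631 without the 90 min library). PHO90 was thus low at 30 to 60 min and stood near its 0 min level later. PLC1, phospholipase C, fell 1.84-fold (adjusted p = 0.0255, up to 0.128 without 1 library), and DDP1, a polyphosphate and inositol pyrophosphate phosphatase, fell 2.01-fold (adjusted p = 0.0484, up to 0.200 without 1 library). Both calls were lost without the 30, 45, 90 or 105 min library, and that of DDP1 also without the 60 min library and under centring.

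General stress genes, those raised in common by many stresses, showed the largest median fall of the lists. Of 51 tested, 44 fell and 0 rose, against 15.9% and 9.27% of all genes, and the median difference was -1.88. The list's median stood 1.25, 0.31 and 0.20 (log2) above 0 min at 75, 90 and 105 min, against 2.62, 2.93 and 2.06 at 30, 45 and 60 min. Of 47 members raised at 30 to 60 min, 16 returned, 31 partly returned and 0 stayed changed. Without the 90 min library 26 of the 51 were called lower.

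Windows before BDH2 (chrI:33148-33447, plus strand), RTC3 (chrVIII:280520-280819, plus strand) and HXK1 (chrVI:255050-255349, minus strand) are shown because these genes fell most among those matched to R64. Capitals mark the stress response element core AGGGG on either strand.
BDH2: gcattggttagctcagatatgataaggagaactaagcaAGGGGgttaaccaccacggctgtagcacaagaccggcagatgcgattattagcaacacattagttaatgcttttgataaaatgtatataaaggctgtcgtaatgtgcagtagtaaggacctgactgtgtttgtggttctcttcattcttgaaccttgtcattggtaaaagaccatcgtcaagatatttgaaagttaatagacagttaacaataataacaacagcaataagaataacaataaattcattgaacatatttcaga
RTC3: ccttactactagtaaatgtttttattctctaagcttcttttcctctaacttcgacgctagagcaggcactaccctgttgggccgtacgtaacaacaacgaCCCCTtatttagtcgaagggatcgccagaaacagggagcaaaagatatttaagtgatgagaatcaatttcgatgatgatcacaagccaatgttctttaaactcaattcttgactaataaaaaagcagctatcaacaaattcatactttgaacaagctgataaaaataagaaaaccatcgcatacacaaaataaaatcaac
HXK1: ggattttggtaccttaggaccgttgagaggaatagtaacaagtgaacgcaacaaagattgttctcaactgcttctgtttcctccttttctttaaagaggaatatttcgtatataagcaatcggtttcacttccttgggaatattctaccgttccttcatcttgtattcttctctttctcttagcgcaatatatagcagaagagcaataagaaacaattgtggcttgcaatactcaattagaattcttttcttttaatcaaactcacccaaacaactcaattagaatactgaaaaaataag
BDH2 holds the element 262 bases before the start codon and RTC3 holds it on the other strand at 200 bases, while these letters are not in the HXK1 window. Over the list, 40 of 51 windows (78.4%) hold it, against 22.2% of all windows.

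BDH2, a dehydrogenase gene next to its paralog BDH1, had 4.34, 3.52 and 4.15 log2 RPM at 75, 90 and 105 min, against 7.47, 7.49 and 5.93 at 30, 45 and 60 min, and 4.04 at 0 min. It fell 7.78-fold (-2.96 ± 0.41, log2, SE; limma adjusted p = 0.00592), and its later window lay around the 0 min value. HXK1, a hexokinase, had 8.63, 7.21 and 6.88 log2 RPM at 75, 90 and 105 min, against 10.50, 10.95 and 10.04 at 30, 45 and 60 min, and 6.21 at 0 min. It fell 7.59-fold (adjusted p = 0.00592) and 31.8% of its rise was left, mostly through the 75 min library. YFR052C-A, an open reading frame with no match in the R64 annotation used, fell 7.65-fold with values close to those of HXK1 in each library. At 75 min both had the same value (8.63 log2 RPM), so they are not known to have been measured independently.

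RTC3 fell 7.49-fold, with 5.92, 5.33 and 5.68 log2 RPM at 75, 90 and 105 min, against 9.07, 9.13 and 7.45 at 30, 45 and 60 min, and 5.12 at 0 min. The 60 min library already lay below the 30 and 45 min ones, as it did for BDH2 and TMA10. TMA10, a ribosome-associated protein gene, had 4.88, 4.33 and 4.42 log2 RPM at 75, 90 and 105 min, against 8.53, 8.06 and 5.61 at 30, 45 and 60 min, and 4.36 at 0 min (7.26-fold lower; limma adjusted p = 0.0118, or 0.0501 without the 90 min library). CYC7, a cytochrome c isoform, fell 7.04-fold, the reticulon-like gene RTN2 6.71-fold and the mitochondrial protein gene AIM17 5.81-fold. YKL071W, of unknown function, fell 6.32-fold and was not listed at 0 or 75 min. Also among the 12 largest falls, PGM2, phosphoglucomutase, fell 6.84-fold, GLC3, the glycogen branching enzyme, 5.98-fold, and GPH1, glycogen phosphorylase, 5.73-fold. These 3 kept 28.2%, 27.6% and 29.7% of their rises. PGM2 had 6.61, 5.10 and 5.87 log2 RPM at 75, 90 and 105 min, against 8.29, 9.09 and 8.52 at 30, 45 and 60 min, and 4.77 at 0 min. The 75 min library was the highest of the later window for each of them and still below all 3 earlier ones.

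Of 24 chaperones under the heat shock factor Hsf1, 14 were called lower and 0 higher, against 15.9% and 9.27% of all genes. Their median difference from 0 min was 0.30, -0.19 and -0.19 at 75, 90 and 105 min, against 1.14, 1.00 and 0.65 at 30, 45 and 60 min. SSA4, an inducible Hsp70, fell 4.46-fold (limma adjusted p = 0.0101) and SSE2, an Hsp110 nucleotide exchange factor, 4.19-fold (adjusted p = 0.00592). HSP82, the inducible Hsp90, had 8.94, 8.0 and 8.13 log2 RPM at 75, 90 and 105 min, against 10.52, 10.39 and 9.72 at 30, 45 and 60 min, and 8.12 at 0 min, so 11.4% of its rise was left. HSP82 values held fractions of reads. The count of called chaperones was 4 without the 90 min library, 5 without 45 min, and 6 without either 30 or 105 min. Of 14 unfolded protein response genes 1 was called lower, under the share of all genes: PDI1, the disulfide isomerase (1.66-fold; adjusted p = 0.0428), and the count was 0 under centring and without the 30, 45, 60, 90 or 105 min library, and 4 without the 75 min library.

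All 33 proteasome genes were called lower at 75 to 105 min, against 15.9% of all genes, by between -1.21 and -0.76 (log2), with a median of -0.99. These calls depended on the libraries kept. Without the 90 min library 0 were called, without 105 min 3, without 45 min 5 and without 30 min 15. Of the members with the largest falls, RPN11, RPN7, PRE3 and PRE1, none lost its call without the 60 or 75 min library. All 33 differences were negative, and the windows did not overlap for 32 genes, against 43.8% of all genes tested. Above the 0 min level were 32 members at 75 min, 1 at 90 min and 2 at 105 min. The list's median from 0 min was 0.33, -0.37 and -0.36 at 75, 90 and 105 min. Over the 4083 genes compared with 0 min above, the median was 0.31, 0.06 and -0.02. The list thus stood close to the shift of the whole library at 75 min, and below that shift at 90 and 105 min. The count at 75 min therefore does not set the list apart. RPN11, the deubiquitinating subunit of the lid, had 8.0, 7.38 and 7.13 log2 RPM at 75, 90 and 105 min, against 8.60, 8.81 and 8.73 at 30, 45 and 60 min, and 7.57 at 0 min (2.32-fold lower; limma adjusted p = 0.0119, or 0.0586 without 90 min).

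Of 12 autophagy genes tested, 8 were called lower and 0 higher, against 15.9% and 9.27% of all genes, with a median difference of -1.01. The count was 3 without the 105 min library and 4 without the 45 or 90 min library. ATG8, the ubiquitin-like protein of the autophagosome membrane, fell 3.67-fold, with 4.88, 4.52 and 4.97 log2 RPM at 75, 90 and 105 min, against 6.78, 7.13 and 6.08 at 30, 45 and 60 min, and 4.77 at 0 min (limma adjusted p = 0.00615). The later values lay on both sides of the 0 min value. ATG7, the enzyme that activates Atg8, fell 2.59-fold (adjusted p = 0.0154), and was not listed at 90 min and so was fitted on 5 libraries.

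Ribosome biogenesis genes, which encode the factors that process ribosomal RNA and assemble the subunits, had the largest median rise of the lists. Of 111 tested, 99 rose and 0 fell, against 9.27% and 15.9% of all genes, and the median difference was 1.63 (log2). Over the 101 members with a value in every library from 0 to 150 min, the median from 0 min was -0.05, 0.11 and -0.20 at 75, 90 and 105 min, against -1.95, -2.13 and -0.81 at 30, 45 and 60 min. Members that went unlisted at any of these times are not in it. Of 97 members lowered at 30 to 60 min, 95 returned and 2 partly returned. Without the 90 min library 47 were called higher, and 66 without the 45 min library.

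The windows before DBP3 (chrVII:361860-362159, minus strand), RPA135 (chrXVI:581197-581496, minus strand) and MAK21 (chrIV:570349-570648, plus strand) are shown because these genes rose most of all tested. Capitals mark the polymerase A and C element (PAC, GATGAG) and the ribosomal RNA processing element (RRPE, AAAATTT) on either strand; in each window the RRPE matches on opposite strands overlap.
DBP3: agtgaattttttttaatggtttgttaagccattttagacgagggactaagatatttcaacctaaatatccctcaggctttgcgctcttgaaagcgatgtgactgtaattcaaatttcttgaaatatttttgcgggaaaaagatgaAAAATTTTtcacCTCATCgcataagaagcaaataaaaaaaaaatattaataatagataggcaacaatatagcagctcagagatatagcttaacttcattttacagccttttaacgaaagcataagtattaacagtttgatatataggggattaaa
RPA135: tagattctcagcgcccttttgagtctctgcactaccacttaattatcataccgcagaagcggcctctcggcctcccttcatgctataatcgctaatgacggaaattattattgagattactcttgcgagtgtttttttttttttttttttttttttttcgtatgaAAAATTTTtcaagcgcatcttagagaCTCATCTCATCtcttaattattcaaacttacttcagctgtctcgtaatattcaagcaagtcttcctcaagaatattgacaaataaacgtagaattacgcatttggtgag
MAK21: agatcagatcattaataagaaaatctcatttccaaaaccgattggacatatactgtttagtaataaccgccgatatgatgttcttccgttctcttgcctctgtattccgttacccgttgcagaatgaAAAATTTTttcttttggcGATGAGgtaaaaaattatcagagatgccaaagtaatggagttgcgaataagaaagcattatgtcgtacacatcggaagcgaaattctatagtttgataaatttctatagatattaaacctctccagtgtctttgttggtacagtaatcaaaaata
In all 3 windows the RRPE lies upstream of the PAC element, from 173 to 134 bases before the start codon, and the PAC matches begin from 155 to 104 bases before it. In RPA135 a pair of PAC matches overlap by a base. Of the 111 biogenesis windows 101 (91.0%) hold PAC and 105 (94.6%) hold RRPE, against 19.1% and 24.4% of all windows. Among 138 ribosomal protein windows the shares were 11.6% and 29.7%.

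DBP3, an RNA helicase of ribosomal RNA processing, had 7.16, 7.63 and 7.12 log2 RPM at 75, 90 and 105 min, against 4.32, 3.65 and 5.96 at 30, 45 and 60 min, and 7.21 at 0 min. It rose 6.33-fold (2.66 ± 0.49, log2, SE; limma adjusted p = 0.00779) and its later window lay around the 0 min value. MAK21, of the large subunit pathway, rose 5.58-fold, with 8.12, 8.18 and 8.04 log2 RPM at 75, 90 and 105 min, against 4.70, 5.40 and 6.80 at 30, 45 and 60 min, and 8.06 at 0 min. The spread lay in the earlier window, where the level was already climbing at 60 min (SD 1.07, against 0.07 at 75 to 105 min). NSR1, a nucleolin-like protein, rose 4.99-fold, SDA1, a factor of large subunit export, 4.96-fold, NOP13, a nucleolar RNA-binding protein, 4.86-fold, and RRS1, of large subunit assembly, 4.84-fold.

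The 12 largest rises also held AAH1 and RKI1. AAH1, adenine deaminase, had 8.10, 8.50 and 8.15 log2 RPM at 75, 90 and 105 min, against 5.46, 5.19 and 6.76 at 30, 45 and 60 min, and 8.32 at 0 min (5.45-fold higher; limma adjusted p = 0.00592). RKI1, a pentose phosphate isomerase that makes ribose 5-phosphate, rose 4.88-fold (adjusted p = 0.00622). Of 17 purine synthesis genes 4 rose and 4 fell, against 9.27% and 15.9% of all genes, and the median difference was -0.34. GUA1, GMP synthase, rose 3.64-fold and IMD4, an IMP dehydrogenase, 3.10-fold (adjusted p = 0.00622 each), while ADE17, of the last steps to IMP, fell 2.72-fold (adjusted p = 0.0235, up to 0.0961, lost without the 45, 90 or 105 min library). IMD4 overlaps the small nucleolar RNA gene SNR54 and held fractions of reads in most libraries. Without the 45, 90 or 105 min library 2 of the 17 were called higher, and the lower calls ranged from 0 without the 90 min library to 7 without the 75 min library.

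RNA polymerase I and III, which transcribe ribosomal and transfer RNA, had 16 of 23 tested subunit genes called higher and 0 lower, against 9.27% and 15.9% of all genes, with a median difference of 1.38. The count was 8 without the 90 min library and 9 without the 45 or 105 min library. RPA135, the second largest subunit of polymerase I, had 7.97, 8.34 and 7.98 log2 RPM at 75, 90 and 105 min, against 5.08, 4.78 and 6.78 at 30, 45 and 60 min, and 8.12 at 0 min (5.86-fold higher; limma adjusted p = 0.00678). RPA43 rose 5.01-fold (adjusted p = 0.00622). RPA49 rose 4.95-fold (adjusted p = 0.0174, up to 0.0625), a call lost without the 45, 90 or 105 min library. RPC82, of polymerase III, rose 3.96-fold (adjusted p = 0.0128, or 0.0507 without the 90 min library). RPC82 was not listed at 30 min and was fitted on 5 libraries.

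Ribosomal protein genes came back later than the biogenesis genes. Their median from 0 min was -0.93, -0.21 and -0.02 at 75, 90 and 105 min, against -1.14, -1.92 and -1.97 at 30, 45 and 60 min. At 60 min this list was still at its 45 min level, while the biogenesis list had begun to climb; the difference between the lists was not tested. Of 138 members tested, 112 rose and 0 fell, against 9.27% and 15.9% of all genes, with a median difference of 1.30, and of 130 lowered at 30 to 60 min 72 returned and 58 partly returned. The count was 35 without the 90 min library, 46 without 105 min, 50 without 45 min and 73 without 60 min. Only 26 of the 138 held whole reads in all 7 libraries, so paralogs are not known to have been measured independently.

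RPL22B, a large subunit protein gene with whole reads in all 7 libraries, rose 4.16-fold, with 8.37, 8.83 and 8.33 log2 RPM at 75, 90 and 105 min, against 6.32, 5.97 and 7.07 at 30, 45 and 60 min, and 8.17 at 0 min (limma adjusted p = 0.00592). All 3 later libraries lay above 0 min. RPS14B rose 5.01-fold, RPL27B 4.70-fold and RPS29A 4.24-fold (adjusted p = 0.00592 each). These 3 held fractions of reads.

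Of 37 translation factor genes 11 rose and 1 fell, against 9.27% and 15.9% of all genes. The higher count was 18 when centred on the genes listed in all 7, 5 without the 105 min library, 4 without 30 min, 2 without 45 min and 1 without 90 min. YEF3, elongation factor 3, had 11.96, 12.50 and 12.62 log2 RPM at 75, 90 and 105 min, against 11.36, 10.65 and 11.10 at 30, 45 and 60 min, and 12.53 at 0 min (2.50-fold higher; limma adjusted p = 0.0103, or 0.0523 without the 90 min library). Its paralog HEF3 moved the other way, 2.98-fold lower (adjusted p = 0.00678), with 4.34, 3.74 and 3.82 log2 RPM at 75, 90 and 105 min, against 5.85, 5.68 and 5.08 at 30, 45 and 60 min, and 3.70 at 0 min. Each of the pair was back near its 0 min level at 90 and 105 min.

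**Figure D4:**
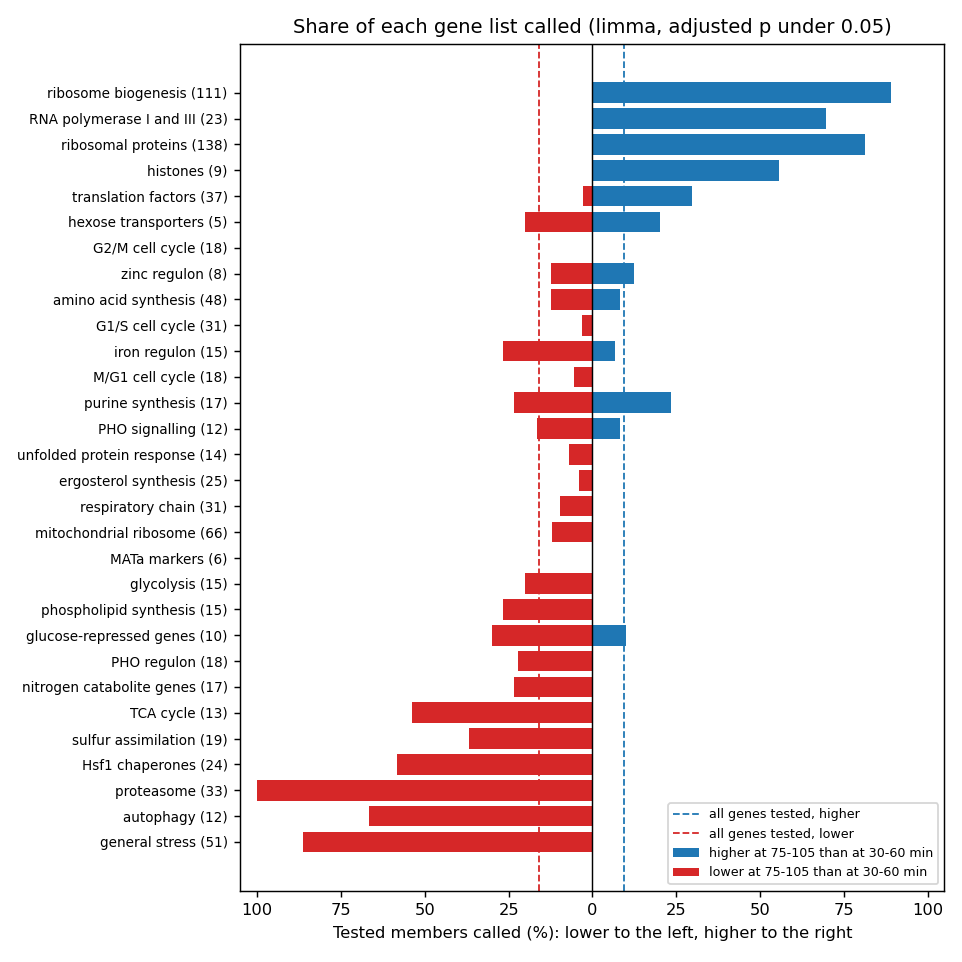
Percent of the tested members of each gene list (members tested in brackets) that were called lower (red, left) or higher (blue, right) at 75 to 105 min than at 30 to 60 min; dashed lines show the shares over all genes tested, 15.9% and 9.27%. Ribosome lists extend to the right, and stress, autophagy and proteasome lists to the left.

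Among energy genes, 7 of 13 TCA cycle genes fell and 0 rose, against 15.9% and 9.27% of all genes, with a median difference of -0.85. LSC2, a succinyl-CoA ligase subunit, fell 2.75-fold (limma adjusted p = 0.00976), CIT1, citrate synthase, 2.61-fold (adjusted p = 0.0118, or 0.0590 without the 90 min library) and MDH1, mitochondrial malate dehydrogenase, 2.36-fold (adjusted p = 0.00879). The count was 2 without the 90 min library, 4 without the 60 min library and 3 without either the 30, 45 or 105 min library. Glycolysis had 3 of 15 called lower, near the share of all genes, led by ENO1, an enolase whose values held fractions of reads (3.01-fold; adjusted p = 0.0109, or 0.0529 without 90 min). The count was 8 without the 75 min library, 1 without the 30, 45 or 105 min library and 0 without the 90 min library. All 15 glycolysis differences were negative, with a median of -0.55, against -0.22 over all genes tested. The windows did not overlap for 13 of the 15, against 43.8% of all genes tested. The respiratory chain, with 3 of 31 called lower, and the mitochondrial ribosome, with 8 of 66, lay under the 15.9% of all genes. Without the 75 min library the counts were 7 and 23, and without the 90 min library 0 and 1. Differences were negative for 24 of the 31 and 63 of the 66, with medians of -0.42 and -0.44. Windows did not overlap for 16 and 23 of them.

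A pair of hexose transporter genes moved in opposite directions. HXT7, a high-affinity transporter, fell 3.64-fold (limma adjusted p = 0.0118, or 0.0529 without the 90 min library), and HXT3, a low-affinity one, rose 1.71-fold (adjusted p = 0.0475, up to 0.180 without 1 library). HXT3 lost its call without the 30, 45, 90 or 105 min library. Both held fractions of reads, and 5 of 11 transporter genes could be tested.

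Of 17 nitrogen catabolite genes 4 were called lower, a share not far above the 15.9% of all genes. The largest fall was that of GAP1, the general amino acid permease, with 7.01, 5.74 and 6.14 log2 RPM at 75, 90 and 105 min, against 8.18, 8.26 and 8.11 at 30, 45 and 60 min, and 5.81 at 0 min (3.69-fold lower; limma adjusted p = 0.00622). The windows did not overlap and 20.6% of its rise was left. That count was 1 without the 90 or 105 min library, 2 without 45 min and 9 without 75 min. Of 19 sulfur assimilation genes 7 were called lower, against 15.9% of all genes, led by MET28, a regulator of sulfur genes (4.38-fold; adjusted p = 0.00592), which was not listed at 75 min and was fitted on 5 libraries. That count was 0 without the 90 min library, 1 without 105 min, 2 without 45 min and 4 without 30 min.

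Of 15 phospholipid synthesis genes 4 were called lower, and of 15 iron regulon genes 4 lower and 1 higher, against 15.9% and 9.27% of all genes. Without the 90 min library 1 of each list was called lower. OPI3, a methyltransferase of phosphatidylcholine synthesis, fell 4.05-fold, with 8.25, 7.58 and 7.08 log2 RPM at 75, 90 and 105 min, against 9.91, 9.77 and 9.28 at 30, 45 and 60 min, and 8.24 at 0 min (limma adjusted p = 0.00622). It ended below 0 min in the 90 and 105 min libraries. ERG28, of ergosterol synthesis, fell 2.97-fold (adjusted p = 0.00845). It was the only 1 of 25 genes of its list to be called, under the 15.9% of all genes. Without the 75 min library 6 of the list were called, and the lower calls over all genes also rose, from 768 to 1175. FIT2, a cell wall mannoprotein of iron uptake, fell 2.23-fold (adjusted p = 0.00957), with 5.58, 5.22 and 4.97 log2 RPM at 75, 90 and 105 min, against 6.46, 6.46 and 6.32 at 30, 45 and 60 min, and 6.17 at 0 min. FIT2 had thus not risen much at 30 to 60 min and went below its 0 min level later.

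Cell cycle lists followed another course. G1/S genes were highest at 60 and 75 min, with a median of 0.85 (log2) above 0 min in both over 25 members, so the windows split their peak. Of 31 genes 1 was called, under the 15.9% of all genes called lower. It was SWI4 (2.24-fold lower, limma adjusted p = 0.0264, up to 0.0891). The SWI4 call was lost without the 30, 60, 90 or 105 min library, and the list had 3 lower calls without the 75 min library. Histone genes stood at 0.69, 0.77 and 0.03 at 75, 90 and 105 min, against -0.10, -0.40 and -0.05 at 30, 45 and 60 min. Of 9 histone genes 5 rose, against 9.27% of all genes, with a median difference of 0.79. HTB2, histone H2B, had 10.07, 10.37 and 9.62 log2 RPM at 75, 90 and 105 min, against 9.21, 8.81 and 9.28 at 30, 45 and 60 min, and 9.59 at 0 min (1.89-fold higher; adjusted p = 0.0291, up to 0.138, lost without the 30, 45 or 90 min library). The histone count was 0 without the 30, 45 or 90 min library, 1 without 75 min and 3 without 60 min, and 1 of the 9 genes held whole reads in all 7 libraries. Of 18 G2/M genes none was called, and of 18 M/G1 genes 1 was, PST1 (2.13-fold lower, adjusted p = 0.0197, up to 0.0777). The PST1 call was lost without the 45, 90 or 105 min library. Both lists lay under the 25.2% of all genes called in either direction.

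**Figure D5:**
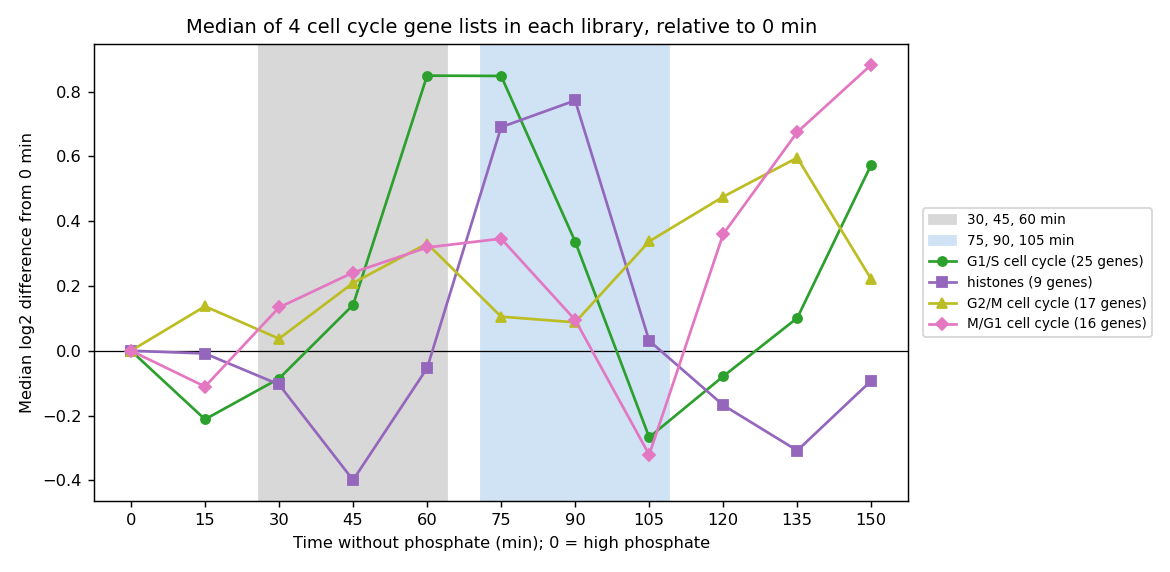
Median log2 difference from 0 min (vertical axis) of 4 cell cycle lists in each library from 0 to 150 min (horizontal axis, minutes without phosphate). Only members with a value in all of these libraries are used. Points are single libraries and bands mark the 2 windows. The G1/S median is 0.85 at 60 and 75 min, the histone median is highest at 75 and 90 min, and all medians stay within 1 of 0.

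Outside the PHO regulon, the genes with the largest first rises that stayed changed were IDH1, a subunit of mitochondrial isocitrate dehydrogenase, and ETP1. IDH1 had 7.88, 6.75 and 5.95 log2 RPM at 75, 90 and 105 min, against 6.55, 7.61 and 7.76 at 30, 45 and 60 min, and 5.18 at 0 min. It peaked across the border of the windows, and its difference of -0.45 ± 0.47 (log2, SE; limma adjusted p = 0.523) had the opposite sign without the 105 min library (0.01). ETP1 had 5.38, 5.45 and 4.32 log2 RPM at 75, 90 and 105 min, against 5.64, 5.67 and 5.25 at 30, 45 and 60 min, and 3.45 at 0 min. FRE1, the 1 sorted gene that stayed lower, had 4.20, 4.18 and 4.82 log2 RPM at 75, 90 and 105 min, against 4.32, 4.19 and 4.03 at 30, 45 and 60 min, and 6.22 at 0 min, so 89.1% of its fall was left. Its 30 and 75 min values equal the listing limit of those libraries, 10 reads. The share left of FRE1 thus rests on few reads. None of the 42 genes that stayed changed passed the test between the windows, which their definition makes likely.

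The shares of promoter windows that hold each motif are given by class as a description, with no test. Either Pho4 motif was in 12 of 40 windows (30.0%) of genes that stayed higher and in 35 of 308 (11.4%) of genes first higher that returned, against 12.4% of all windows. For genes first higher that partly returned it was 85 of 412 (20.6%). The genes that stayed higher include 7 PHO regulon members. The stress element was in 6 of 40 (15.0%) of genes that stayed higher and 164 of 308 (53.2%) of those that returned, against 22.2%. PAC was in 191 of 298 windows (64.1%) of genes first lower that returned and in 23 of 94 (24.5%) of those that partly returned, against 19.1%.

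A few genes had values in all 3 libraries of 1 window and none of the other. In 75 to 105 min alone there were 10, of which TSR1, a factor of small subunit maturation, stood highest, with 4.88, 5.61 and 5.02 log2 RPM at 75, 90 and 105 min and 5.45 at 0 min. Against the highest listing limit of 30 to 60 min, 10 reads at 30 min, it was at least 1.80-fold higher. In 30 to 60 min alone there were 6, of which YDR034W-B was at least 1.98-fold lower at 75 to 105 min, with 4.90, 5.36 and 5.30 log2 RPM at 30, 45 and 60 min and no value at 0 min. YBR284W was at least 1.63-fold lower at 75 to 105 min, with 5.0, 5.10 and 4.61 log2 RPM at 30, 45 and 60 min and 3.62 at 0 min.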

How the data were processed

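Total RNA of 1 yeast time course was sequenced on an Illumina instrument, per the labels' protocols. The submitters' processing notes name Bowtie and the R64 build. For the version, annotation, counting and strand use, the sources used here give nothing. The deposited table holds log2 values that the authors made; raised from log2 they sum to 1e+06 per library, so they are log2 RPM and not ratios to the first time point. Their spacing gives the depth: 501479 to 1911747 reads in the 7 libraries used, the smallest listed value being 10 reads. Of the values 94.1% to 94.9% were whole reads (tolerance 0.02), and the rest were fractions. Because depth was recovered from spacing alone, no count model was used. Of 6701 rows, 51 unnamed ones held nothing, and a pair with 1 name between them was dropped.

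Genes with a value in 2 or more of the 3 libraries in both windows were fitted with limma 3.58.1 (lmFit, eBayes) in R 4.3.3 on log2 RPM with window as the only factor; unlisted values were left out of the fit. P-values were adjusted over all 4820 genes after Benjamini and Hochberg and called under 0.05; 1858 genes had an unadjusted p under 0.05. The fit was run on simulated data with independent noise and no change with time within a window. That run therefore does not give its error rate in these data. A fold change is 2 raised to the difference of the log2 means. Alternatives were library centring, other filters, a pseudocount of 10 RPM, a variance trend, all 25 libraries in 1 fit, and leaving out each library. Promoter windows were read from the RefSeq R64 genome and annotation, which matched 5963 of 6648 gene names. Named genes were the 12 largest rises and falls among calls without overlap, all PHO regulon genes, the genes with the largest first changes that stayed changed, up to 4 leading genes per list, and genes listed in 1 window only. The members and the gene lists were chosen with earlier results of these data known.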

Additional observations from a re-analysis of the deposited data

How the results depend on the processing

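No paired analysis was possible because the labels give no replicate numbers and the windows hold different times. Leaving out each library in turn moved the genes called higher between 139 and 462 and those called lower between 160 and 1175. It moved the calls between 0 and 10 for the PHO regulon, 35 and 130 for ribosomal proteins, 47 and 99 for ribosome biogenesis, and 26 and 50 for general stress. With all 25 libraries in the fit 12 PHO regulon genes were called lower. Among genes first higher, the same step gave 236 to 494 returned, 266 to 486 partly returned and 17 to 88 stayed changed; among genes first lower, 253 to 357, 37 to 131 and 1 to 4. Genes at least 1 from 0 min numbered 60 to 215 higher and 11 to 21 lower at 75 to 105 min, and 790 to 880 higher and 360 to 507 lower at 30 to 60 min. With libraries centred on genes listed in all 7 and on tested genes, genes first higher were 193 and 187 returned and 187 and 179 partly returned, and genes first lower 195 and 198 partly returned and 4 and 4 stayed changed. At least 1 higher than 0 min were 63 and 62 at 75 to 105 min (24 and 26 lower) and 434 and 419 at 30 to 60 min. With changed taken from 0.8 (log2), 482 returned and 74 stayed higher, and 2 stayed lower. From 1.5, 126 returned, 181 partly returned and 15 stayed higher, and of genes first lower 173 returned and 57 partly returned. The difference of PHO89 ran from -0.5167 to 0.003287 (without 90 min) and that of IDH1 from -0.9562 to 0.0093 (without 105 min); no other named gene changed sign in any alternative. Single libraries at each time, uneven depth and shares of reads as the unit limit these results; the cause of these moves was not tested.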

Other observations

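Of 48 amino acid synthesis genes 4 rose and 6 fell, both under the 9.27% and 15.9% of all genes, so these counts do not set the list apart, and the list's median difference of -0.06 became 0.12 when libraries were centred on the genes listed in all 7. LEU9, an isopropylmalate synthase, rose 3.50-fold (limma adjusted p = 0.0121, or 0.0555 without the 90 min library), with 7.09, 7.82 and 7.70 log2 RPM at 75, 90 and 105 min, against 6.04, 4.78 and 6.37 at 30, 45 and 60 min, and 7.84 at 0 min. SER33, of serine synthesis, fell 2.02-fold (adjusted p = 0.0118, or 0.0580 without the 90 min library). The counts were 0 higher and 0 lower without the 90 min library.

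NDT80, a regulator of meiosis, was the 1 of 8 sporulation markers that could be tested. It had 5.97, 4.52 and 5.27 log2 RPM at 75, 90 and 105 min, against 6.00, 6.00 and 6.32 at 30, 45 and 60 min, and 3.62 at 0 min, with 65.7% of its rise left (limma adjusted p = 0.0917, or 0.0155 without the 75 min library). ENB1, a siderophore transporter, fell 2.12-fold (adjusted p = 0.0206, up to 0.0992, lost without the 30, 45, 90 or 105 min library) and went below 0 min, with 4.79, 4.26 and 4.74 log2 RPM at 75, 90 and 105 min, against 6.04, 5.81 and 5.20 at 30, 45 and 60 min, and 6.05 at 0 min.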
